A study of Mus musculus with 2 samples.

Results

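The data below concern 8 transcription factor genes of gonadal interstitial progenitors, Nr2f1, Nr2f2, Tcf21, Maf, Lhx9, Wt1, Gata4 and Gata6, in ovaries of newborn mice. The genes were chosen by name: every probe set whose only gene symbol in the array platform annotation was one of the 8 symbols was taken, which gave 25 of 34945 probe sets with a single symbol and 8 of 18193 named genes. The 8 names were chosen with earlier results of these arrays known. A probe set is a group of short oligonucleotides on the array that reads the RNA of one gene. No probe set with several symbols held a member. The study compared ovaries with and without activation of hedgehog signalling in gonadal somatic cells. The control group was Amhr2(+/+)-SmoM2, mice that carry the SmoM2 allele and have no Cre, and the mutant group was Amhr2(cre/+)-SmoM2, in which Cre sits at 1 copy of Amhr2. All mice were 2 days old, so both groups share the SmoM2 allele and the age, and the mutant group differs in Cre and in the copy of Amhr2 that carries it. SmoM2 is an active form of Smoothened, the transducer of the hedgehog signal, and Cre driven from the anti-Müllerian hormone receptor locus acts in granulosa cells, some interstitial cells and the mesenchyme of the Müllerian duct. RNA from the ovaries of 8 mice was pooled in equal amounts for each group and each pool was read on 1 array, so the differences below have no replicate check and carry no p-value.

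The somatic cells of the gonad arise from the epithelium and mesenchyme of the genital ridge. Lhx9, Wt1, Gata4 and Gata6 act early in that ridge and stay on in several somatic lineages, including the supporting cells that become granulosa cells. Nr2f1, Nr2f2, Tcf21 and Maf are known instead as markers of the interstitial or stromal mesenchyme, from which the steroid-producing theca and Leydig cells later form.

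Both arrays had a mean signal of 500.003 when the lowest and highest 2% of probe sets were left out, so they share a scale. A probe set is called measured where at least 1 of its 2 signals reached 80.7 arbitrary units, the median of all values. The log2 ratio (mutant over control) was computed with 22.2 added to both signals, which understates the change of dim probe sets, and it is the quantity behind every count at 1.5-fold (log2 ratio 0.58). The brightest measured probe set, by mean signal, stands for each gene. The only spread the files hold is that between probe sets of one gene, with an SD of 0.38 on the log2 ratio over 13386 probe sets, from 0.47 in the dimmest to 0.32 in the brightest of 4 equal parts. It is no replicate error. Hedgehog target genes checked the labels: in mutant ovaries Hhip was at least 39.8-fold, Ptch1 2.86-fold and Gli1 2.56-fold higher. As defining markers of the ovary, all 10 listed germ cell genes and the granulosa factor gene Foxl2 were measured. Smo had a log2 ratio of 0.28 and Amhr2 of -1.30. The signal ratio of 3' to 5' probe sets was 8.48 in control and 10.5 in mutant ovaries for beta-actin, and 3.28 and 4.98 for Gapdh. The part of this 3' to 5' difference in the member values was not tested. The 18 spiked hybridisation controls had a median log2 ratio of 0.23, and member values centred on them are given further on.

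Of the 8 genes, 4 were at least 1.5-fold higher in the mutant pool and 0 were that much lower, and the 4 were the interstitial and stromal markers Maf, Tcf21, Nr2f1 and Nr2f2. Among the 12308 measured genes of the array the shares were 9.32% higher and 7.9% lower. Because the members were chosen with earlier results of these arrays known, these shares describe and are no test. Lhx9 and Gata4 lay above 0 without reaching 1.5-fold, and Wt1 and Gata6 lay below 0. By the median over each gene's measured probe sets, the genes that passed upward were Nr2f1, Maf and Lhx9 instead. The median log2 ratio was 0.55 over the 8 genes and -0.02 over all measured genes. All 8 representative probe sets stood above the signal minimum in both pools. In a whole-ovary pool, a lower or higher number of cells of a type and less or more RNA per cell cannot be told apart.

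**Figure D1:**
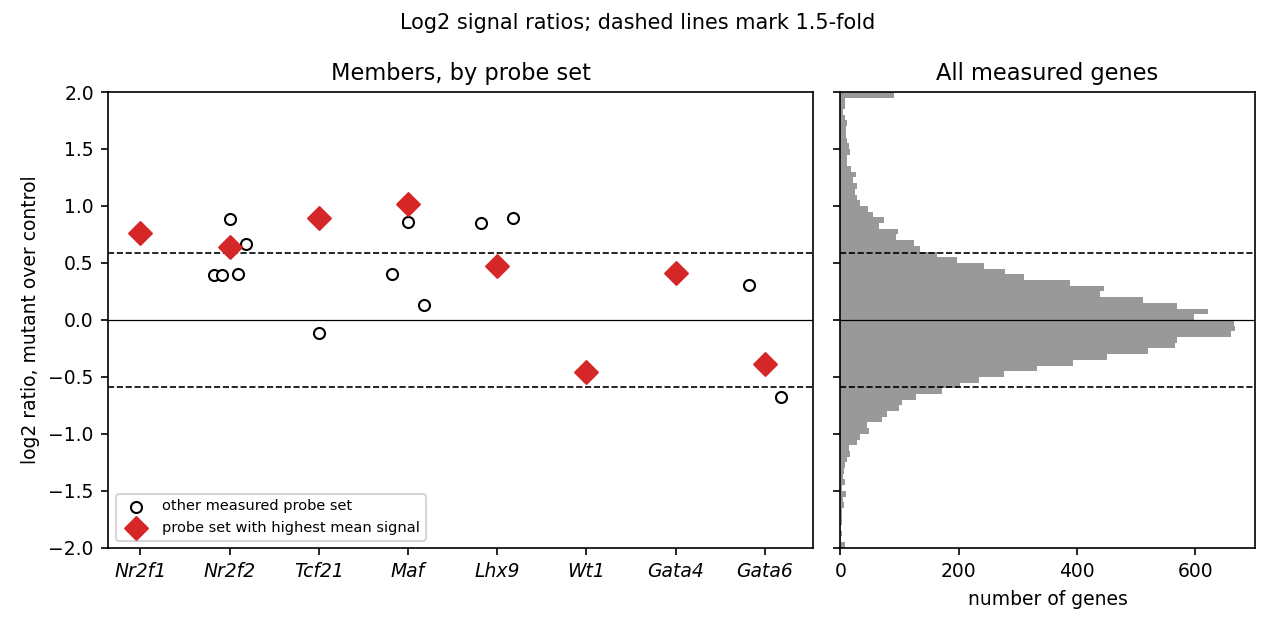
Log2 signal ratios (mutant over control) of the measured probe sets of each member on the left, with the probe set of highest mean signal as a diamond and the others as open circles, and a histogram of the ratios of all 12308 measured genes on the right, with genes beyond -2 or 2 counted in the end bins. Dashed lines mark 1.5-fold, and the diamonds of Nr2f1, Nr2f2, Tcf21 and Maf lie above the upper line while those of Wt1 and Gata6 lie below 0.

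At the level of probe sets, 21 of the 25 were measured and 4 were under the minimum in both pools. Of the 21, 17 had log2 ratios above 0, 9 reached 1.5-fold upward and 1 downward, a share of 42.9% higher where all 20576 measured probe sets gave 8.81%, and 4.76% lower where they gave 9.87%. Of the 9, 1 dim probe set of Nr2f2 counted as measured through the mutant pool alone, so its direction was fixed by that filter. With both pools required to reach the minimum the count was 8 of 20, and the share over all such probe sets was 6.69%. Among the 8 member probe sets in the brightest of 4 equal parts of the array, 4 were at least 1.5-fold higher and 0 that much lower. Over all probe sets of that part the shares were 5.48% and 3.93%. Probe sets of one gene read the same RNA and are not independent of each other.

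Nr2f2 encodes COUP-TFII, an orphan nuclear receptor that marks stromal and interstitial progenitors in gonads of both sexes. Its signal was 1406.4 in control and 2198.3 in mutant ovaries on 1416158_at, a ratio of 1.56 (log2 ratio 0.64). All 6 of its probe sets were brighter in the mutant pool. The signals were 994.7 and 1316.5 on 1416159_at, 602.5 and 800.5 on 1436475_at, and 201.5 and 391.8 on 1416160_at, in the order control and mutant. The log2 ratios of these 3 probe sets were 0.40, 0.40 and 0.89. The remaining 2 were dim, with 80.7 and 113.8 on 1444229_at and 44.8 and 84.2 on 1431237_at, and for the last the mutant signal was at least 1.04-fold higher. By log2 ratio 3 of the 6 passed 1.5-fold, but 1 of these 3 was 1431237_at, whose bound did not reach it. The median log2 ratio over all 6 was 0.52. The direction of 1431237_at was fixed by the filter, since only its mutant signal reached the minimum. The other probe sets shared the direction but not the size. The annotation assigns 3 of the 6 to the same sequence record, and these 3 spanned the range from 0.40 to 0.89.

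Nr2f1 encodes COUP-TFI, the close relative of COUP-TFII with an overlapping DNA-binding preference. It had 1 probe set, 1418157_at, with 398.5 units in control and 689.5 in mutant ovaries. The ratio was 1.73 (log2 ratio 0.76), and 94.2% of measured genes had a lower one. With a single probe set no spread within the gene could be given.

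Tcf21 encodes a basic helix-loop-helix factor of mesenchymal progenitors that is known to restrain Nr5a1, the steroidogenic factor gene, in the developing gonad. The signal on 1417447_at was 1562.7 in control and 2925.6 in mutant ovaries, a ratio of 1.87 (log2 ratio 0.90, above 95.9% of measured genes). Its other probe set, 1458887_at, lay just above the signal minimum at 90.2 and 81.7, with a log2 ratio of -0.11. The bright probe set was higher in the mutant pool, and the dim one was close to even.

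Maf encodes a large basic leucine zipper factor that is found in gonadal interstitial cells and also in macrophages. The signal on 1447849_s_at was 2019.3 in control and 4111.6 in mutant ovaries, a ratio of 2.04 and the highest log2 ratio of the 8 genes, at 1.02. On 1435828_at it was 492.4 and 912.4 (log2 ratio 0.86), on 1456060_at 1723.1 and 2284.7 (0.40), and on 1444073_at 309.4 and 341.9 (0.13). All 4 measured probe sets were brighter in the mutant pool, over a range of 0.88 on the log2 scale. Another 2 probe sets stayed under the minimum, at 45.5 and 48.3 on 1437473_at and 7.3 and 27.9 on 1447945_at.

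Lhx9 encodes a LIM homeodomain factor without which the gonad does not form. On 1419324_at the signal was 3878.8 in control and 5392.8 in mutant ovaries, a ratio of 1.39 (log2 ratio 0.47), which left the gene under 1.5-fold. Its other 2 measured probe sets were above that line, with 1012.2 and 1846.0 on 1429905_at (log2 ratio 0.85) and 213.0 and 413.7 on 1441313_x_at (0.89). The remaining probe set, 1431598_a_at, read 58.5 and 60.4, under the minimum. All 3 measured probe sets were thus brighter in the mutant pool, and whether Lhx9 passed 1.5-fold depended on which one represented it.

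Windows from the RefSeq table of gene starts for build GRCm38.p6 were taken for 4 of the members, namely Nr2f1, Nr2f2, Tcf21 and Lhx9. Member starts on 1 of the chromosomes were left out before this count, with no reason recorded. The count thus does not say which other members the table held. All 4 had a positive log2 ratio on the brightest probe set. Because starts were left out, this shared sign describes these 4 genes alone and is no trait of members with a window. The 250 bases before each start were searched on both strands for short motifs of the members and of the GLI factors of the hedgehog pathway. The motifs were AGATAA and TGATAA for GATA factors, AGGTCA for nuclear receptors such as the COUP factors, CAGCTG for basic helix-loop-helix factors, TGCTGAC for MAF factors and GACCACCCA for GLI factors, and no matches overlapped. The windows of Tcf21 and Lhx9 are printed because each held 1 match, in capitals, to a motif of GATA factors, which are themselves members. Both genes are on the minus strand and the sequences run 5' to 3' on it, with the gene start after the last base. The Tcf21 window is chr10:22820144-22820393 and the Lhx9 window is chr1:138842445-138842694.
Tcf21: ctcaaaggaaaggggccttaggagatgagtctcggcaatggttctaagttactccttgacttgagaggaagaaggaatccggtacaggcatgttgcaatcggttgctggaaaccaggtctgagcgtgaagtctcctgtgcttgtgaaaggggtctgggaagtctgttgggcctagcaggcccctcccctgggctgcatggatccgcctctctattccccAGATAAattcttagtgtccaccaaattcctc
Lhx9: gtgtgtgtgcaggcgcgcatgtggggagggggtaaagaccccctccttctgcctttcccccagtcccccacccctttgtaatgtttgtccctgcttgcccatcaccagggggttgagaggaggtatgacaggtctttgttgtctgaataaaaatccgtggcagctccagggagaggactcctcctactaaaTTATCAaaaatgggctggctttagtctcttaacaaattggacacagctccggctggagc
The Tcf21 match, AGATAA, began 31 bases before the start, and the Lhx9 match, TGATAA on the opposite strand, began 59 bases before it. Of 32851 windows of the same length in the table, 9.99% held AGATAA and 7.94% held TGATAA. The window of Nr2f2 (chr7:70366747-70366996) and both windows of Nr2f1 (chr13:78198874-78199123 and chr13:78196450-78196699) held no match to any of the 6 motifs. The GLI motif was in 0.225% of all windows and in none of these 5, AGGTCA was in 14% of all windows, CAGCTG in 13% and TGCTGAC in 3.81%. A match describes the letters of the window and shows no binding.

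Wt1 encodes a zinc finger factor of the coelomic epithelium and of supporting cells. It was read by 1 probe set, 1425995_s_at, and was the lowest of the 8 genes, with 4844.6 units in control and 3527.6 in mutant ovaries. The control signal was 1.37 times the mutant signal (log2 ratio -0.46), and 12.9% of measured genes had a lower ratio.

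Gata4 and Gata6 encode zinc finger factors that bind the same core motif and act on steroid and peptide hormone genes of the gonad. Gata4 had signals of 472.5 in control and 635.3 in mutant ovaries on 1418863_at, a ratio of 1.34 (log2 ratio 0.41). Its other probe set, 1418864_at, is assigned to the same sequence record and read 35.7 and 4.0, both under the minimum. For Gata6 the signals were 1587.1 and 1211.9 on 1425464_at, with the control 1.31 times the mutant (log2 ratio -0.38). The probe set 1425463_at, which is assigned to the same record, gave 231.9 and 136.5 (log2 ratio -0.68) and was the only measured member probe set at least 1.5-fold lower. The third, 1443081_at, gave 186.6 and 235.9 (log2 ratio 0.31), so the probe sets of Gata6 did not share a direction.

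**Figure D2:**
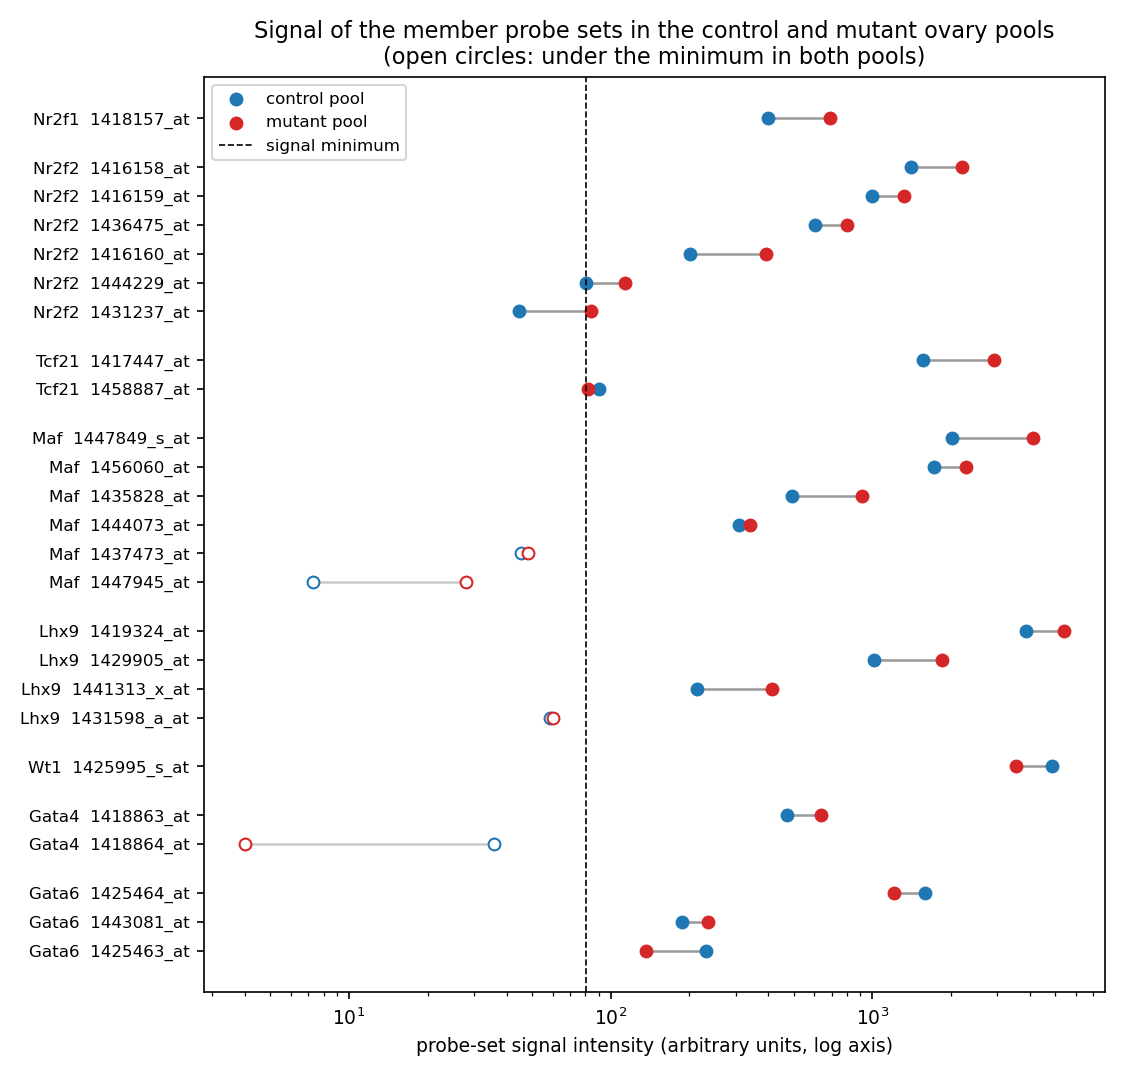
Signal intensity (log axis, arbitrary units) of the 25 member probe sets in the control and mutant pools, joined by a line for each probe set, with open circles for the 4 that were under the signal minimum of 80.7 in both pools. The mutant point lies to the right for every probe set of Nr2f1, Nr2f2, Maf and Lhx9 and to the left for Wt1, and the 3 probe sets of Gata6 go both ways.

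In order of log2 ratio the genes were Maf (1.02), Tcf21 (0.90), Nr2f1 (0.76), Nr2f2 (0.64), Lhx9 (0.47), Gata4 (0.41), Gata6 (-0.38) and Wt1 (-0.46). Neighbours among the first 6 were 0.06 to 0.16 apart, which is 0.16 to 0.42 of the SD between probe sets, so their order was not resolved. Gata6 and Wt1 were 0.07 apart and were not resolved either. The gap between Gata4 and Gata6 was 0.79 on their brightest probe sets, or 2.06 times that SD. The SD is that of single probe sets around their gene mean, and a difference between probe sets spreads more widely. The gap depended on the probe set, since 1443081_at of Gata6 was at 0.31. The SD is no replicate error, so whether the gap would recur in other pools was not tested.

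Which genes passed 1.5-fold depended on the choice of probe set and on the scale. No gene changed sign under any of the alternatives that gave it a value. Moving or dropping the signal minimum, or requiring it in both pools, left every member at its reported value, so these settings are no check of sign. With the median over a gene's measured probe sets, Nr2f1, Maf and Lhx9 passed (log2 ratios 0.76, 0.63 and 0.85), and Nr2f2 and Tcf21 did not (0.52 and 0.39). Without probe sets that can read several transcripts or genes, which end in _x_at, _s_at or _a_at, Maf had a log2 ratio of 0.40, and Wt1 had no probe set left. Centring on the spiked controls moved the median of all genes to -0.25. On that scale Maf (0.79) and Tcf21 (0.67) were at least 1.5-fold higher, and Wt1 (-0.68) and Gata6 (-0.61) were at least 1.5-fold lower. The shares over all measured genes there were 4.96% higher and 18.8% lower, so 2 of 8 lower was near that share. Centring moves every gene by the same amount, so the order of the members was kept.

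**Figure D3:**
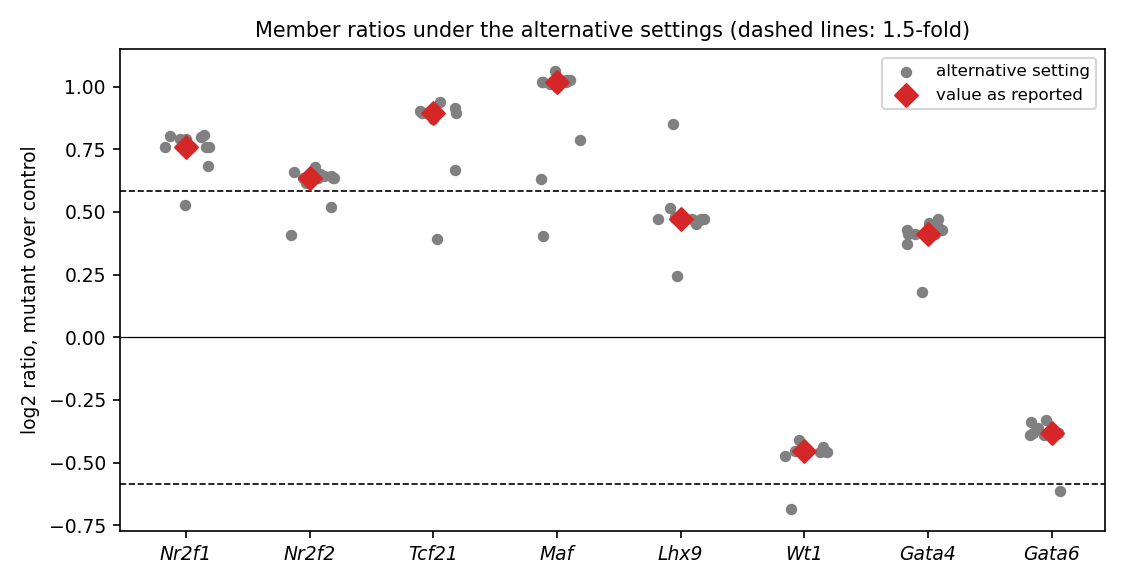
Log2 ratio (mutant over control) of each member as reported, as a diamond, and under each of the 12 alternative settings of scale, signal minimum, pseudocount and probe set, as grey points (11 for Wt1). Dashed lines mark 1.5-fold, and the points of each gene stay on one side of 0.

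Other regulators of the genital ridge and of somatic progenitors showed no common direction. Of 21 listed genes 13 were measured, and by log2 ratio 2 passed 1.5-fold upward and 0 downward, with a median of 0.07. For 1 of the 2, Osr1, the bound did not reach 1.5-fold. Osr1, a zinc finger factor of the intermediate mesoderm, read 45.9 in control and 116.0 in mutant ovaries, at least 1.44-fold higher. Cited2, a transcriptional coactivator that acts with WT1 on Nr5a1, read 2765.1 and 4612.0 (log2 ratio 0.73), and 0.30 on its other probe set. Nr5a1 itself, the gene that Tcf21 is known to restrain, read 501.5 and 733.7 (0.53). The 3 lowest were Zfpm1, a cofactor of GATA factors, at -0.53, the homeobox gene Emx2 at -0.45 and Sox11 at -0.34. The 6 measured probe sets of Sox11 ran from -0.34 to 0.54, so they did not share a direction.

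Relatives of the members within their protein families lay on both sides of 0. Of 29 listed, 15 were measured and 12 were under the minimum in both pools. By log2 ratio 2 of the 15 passed 1.5-fold upward and 2 downward, with a median of -0.14, but neither of the 2 lower genes had a bound that reached 1.5-fold. Trps1, a GATA-type zinc finger repressor, read 587.4 in control and 1329.8 in mutant ovaries (log2 ratio 1.15, and from 0.34 upward over 4 probe sets). Tcf23, a basic helix-loop-helix gene related to Tcf21, read 155.1 and 297.8 (0.85), and Gata2 334.0 and 454.2 (0.42). The lowest were Lhx6, at 93.0 and 43.1, Tcf15, at 99.4 and 58.3, and Nr2f6, the third COUP family gene, at 1245.8 and 866.6 (-0.51). Since the mutant signals of Lhx6 and Tcf15 lay under the minimum, those genes were at least 1.15-fold and 1.23-fold lower.

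All 17 cofactors with a named probe set were measured, of 19 listed. At 1.5-fold 3 of them were higher and 0 lower, with a median log2 ratio of 0.22. Ldb2, which bridges LIM domain proteins such as LHX9, read 1126.5 in control and 2190.1 in mutant ovaries (log2 ratio 0.95), with 0.21 as the lowest of its 3 probe sets. Lmo4, a LIM-only protein, read 330.9 and 619.2 (0.86), and Cited2 was the third. The lowest were Zfpm1, Ldb1, the other LIM domain-binding gene (-0.42), and Bcl11b, which binds COUP factors (-0.19).

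Surface, signal and matrix genes of the interstitial and stromal compartment were mostly higher in mutant ovaries. Of 20 listed 19 were measured, of which 11 were at least 1.5-fold higher and 0 that much lower, and the median log2 ratio was 0.76. This list and the members were chosen with earlier results of these arrays known. Tbx18, a T-box factor of urogenital mesenchyme, read 25.4 in control and 267.0 in mutant ovaries, at least 3.31-fold higher. Enpep, a cell-surface aminopeptidase, read 1400.5 and 7153.6 (5.11-fold), and Igf1, the insulin-like growth factor, 7259.9 and 16267.7 (2.24-fold). The lowest were the intermediate filament gene Nes (log2 ratio -0.20), the proteoglycan gene Dcn (-0.04) and Notch2 (0.13). Nes and Dcn each had another probe set above 0, at 0.44 and 0.13.

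A list of 20 gonadal genes that are described as controlled by GATA4, GATA6, WT1 or COUP factors went both ways. Of 16 measured, 5 were at least 1.5-fold higher and 4 that much lower, with a median log2 ratio of 0.08. The 3 highest were steroid genes. Cyp17a1 was at least 93.3-fold and Cyp11a1 at least 70.6-fold higher, and Star read 164.0 and 2945.3 (log2 ratio 3.99). A second Cyp11a1 probe set had a log2 ratio of only 0.26. The 3 lowest were genes of the supporting lineage, Amhr2 (-1.30), Foxl2 (-0.95) and Nr5a2 (-0.84). Amhr2 also holds the Cre in the mutant group, so its change cannot be told apart from an effect of that allele. The 3 probe sets of Amhr2 ran from -1.30 to -0.26, and the 3 of Nr5a2 from -0.97 to -0.16.

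**Figure D4:**
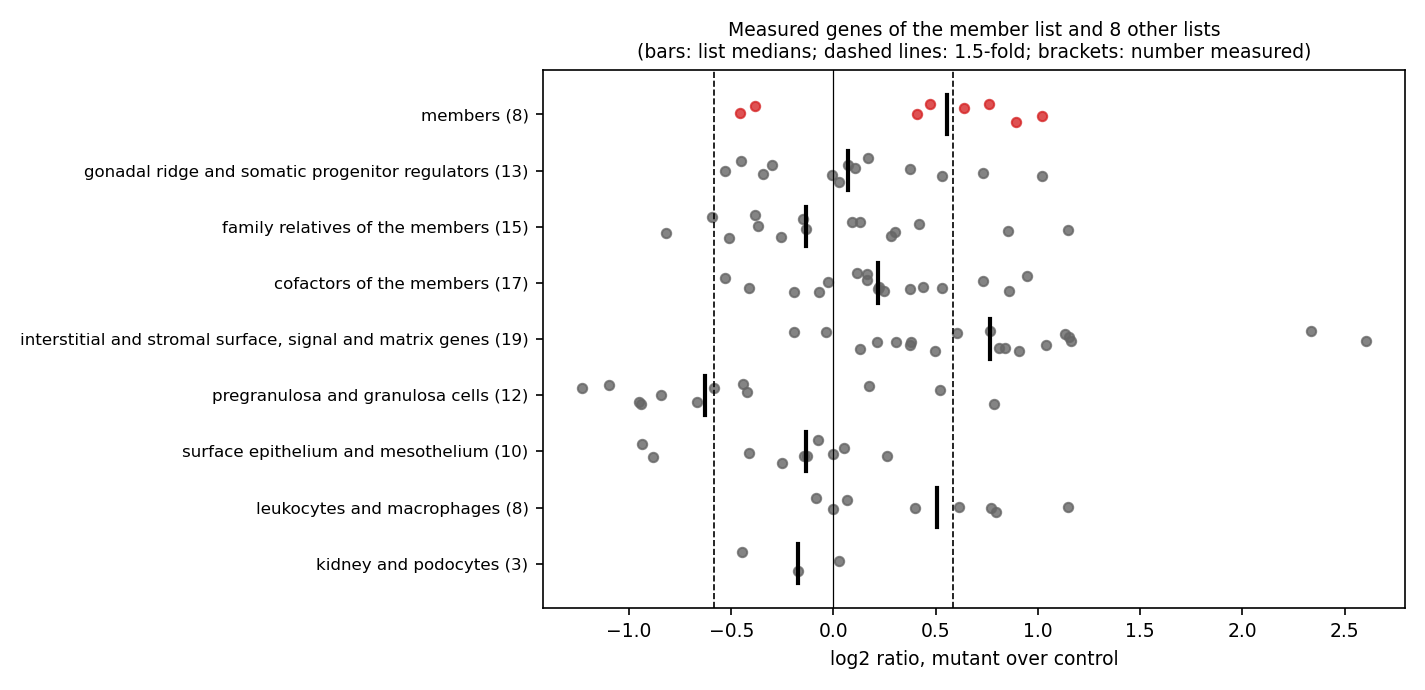
Log2 ratios (mutant over control) of the measured genes of the member list, in red, and of 8 other lists, in grey, with 1 point per gene, a bar at the median of each list and dashed lines at 1.5-fold. The medians of the members (0.55) and of the interstitial and stromal genes (0.76) lie to the right of 0, and that of pregranulosa and granulosa genes (-0.63) lies to the left.

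Markers of cell types that also express some of the members were read beside them. Pregranulosa and granulosa markers are from a lineage that shares Wt1, Gata4, Gata6 and Lhx9. Of 15 such markers 12 were measured, 7 at least 1.5-fold lower and 1 that much higher. Their summed signal was 34254 in control and 28362 in mutant ovaries. Lgr5 (log2 ratio -1.23) and Runx1 (-1.10) were the furthest from 0, and Fshr, Esr2 and Amh were under the minimum. The 4 measured probe sets of Runx1 ran from -1.10 to -0.25. Wt1 and the brightest probe set of Gata6 were lower, as were 9 of these 12 markers, whereas Lhx9 and Gata4 were not. The part of this lineage in the member values was not tested.

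Surface epithelium and mesothelium markers, another site of Wt1 and Lhx9, were all measured, with 2 of 10 at least 1.5-fold lower and 0 that much higher, and with summed signals of 6559 in control and 4758 in mutant ovaries. Krt18 (-0.94) and Krt8 (-0.88) were the 2 lower ones. Leukocyte and macrophage markers, from cells that also express Maf, had 8 of 9 measured, 4 at least 1.5-fold higher and 0 that much lower, with summed signals of 5118 and 8332. C1qb (1.15) and Ptprc (0.79) were the furthest from 0, and C1qa was under the minimum. The lowest of the 3 C1qb probe sets had a log2 ratio of 0.24. The other 4 measured markers lay under 1.5-fold, 2 of them below 0. The part of macrophages in the Maf signal was not tested.

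Müllerian duct and oviduct markers, from a tissue in which this Cre also acts, had 6 of 9 measured. By log2 ratio 2 passed 1.5-fold upward and 1, Ovgp1, downward, with a bound of only 1.04-fold. The summed signals were 2292 and 2522, and Hoxa10, Hoxa11 and Lhx1 were under the minimum. Hoxa9 had a log2 ratio of 1.10, but 0.23 on its other measured probe set, and Ovgp1 read 83.7 and 33.3. Of the kidney and podocyte markers, a tissue that shares Wt1 and Tcf21, 3 of 8 were measured and none reached 1.5-fold in either direction, with summed signals of 382 and 323.7. Nphs1, the podocyte slit diaphragm gene, read 42.0 and 9.1, both under the minimum. Cdh16 (-0.45) and Umod (-0.17) were the furthest from 0.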

How the data were processed

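Equal amounts of RNA from the ovaries of 8 mice were pooled per genotype before labelling and hybridised to 1 array, per the labels' protocols. The authors deposited 1 probe-set signal intensity per probe set and array on a linear scale, and GCOS is the software named in the submitters' processing notes. For its version, settings and scaling step, nothing is stated in the labels. Detection calls played no role.

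The intensities were used as deposited, with no further background correction or normalisation. They ran from 0.1 to 50465 over 45101 probe sets, of which 64 controls were left out of gene counts. Symbols came from the platform annotation, and all 8 member symbols matched RefSeq (GRCm38.p6) through the Entrez gene ID. The signal minimum (80.7) is the 50th percentile and the pseudocount (22.2) the 25th percentile of all values. A gene whose dimmer signal lay under the minimum has its fold as a bound, the brighter signal over 80.7. With 1 array per group no test was run, and the number of arrays limits the precision.

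Python 3.11.15, numpy 2.4.6 and pandas 2.3.3 were used, and the calculation was tested on simulated data. The members and lists were chosen with earlier results of these data known. Named genes were the members, the hedgehog and allele checks, up to 3 highest and 3 lowest genes of each pathway list, and up to 2 genes furthest from 0 in each marker list. Sequences came from the RefSeq table of gene starts. Values were recomputed under 14 other settings, of which 1, centring on the spiked controls, was added after the data were seen.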

Additional observations from a re-analysis of the deposited data

How the results depend on the processing

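No paired analysis was possible because each group held 1 pool. Across the 12 alternative settings of scale, signal minimum, pseudocount and probe set, the median log2 ratio of the members lay between 0.33 and 0.60. Every member kept its sign wherever it had a value, but moving, dropping or requiring the minimum in both pools left the member values unchanged. Of the 8 genes, 4 were at least 1.5-fold higher and 0 lower as reported. Centring on the spiked controls, chosen after the data were seen, shifts every ratio by 0.23 and gave 2 genes higher (4.96% of all genes), 2 lower (18.8%), and 3 of 21 probe sets lower (21.7% of all probe sets). At 2-fold 1 gene (3.21% of all genes) and 1 probe set (2.89%) were higher and 0 probe sets lower (2.04%). At a log2 threshold of 0.32, 6 genes were higher (20.3%) and 2 lower (21.2%), with 15 probe sets higher (19.6%) and 3 lower (24.2%). The single probe set that was lower as reported became 0 with a median-sized pseudocount and with the minimum at the 75th percentile (442.4), and 2 with no minimum, which admits the dim Gata4 probe set. All other settings kept each count within 1.5 times its reported value. The depth behind a signal and the spread between mice, litters and hybridisations were not measured, and dim probe sets carry the widest spread.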

Other observations

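Markers of further cell types in the same pools are counted by log2 ratio at 1.5-fold, beside the 9.32% of all measured genes that were higher and the 7.9% that were lower. A gene with 1 signal under the minimum is given by its bound. Theca and Leydig markers had 6 of 8 measured and all 6 higher, with Cyp17a1 at least 93.3-fold and Cyp11a1 at least 70.6-fold. A second Cyp11a1 probe set had a log2 ratio of only 0.26. The 6 include Ptch1, a hedgehog target used as a check of the labels, and Cyp11b1, which is also on the adrenal list. Of the adrenal cortex markers 3 of 4 measured were higher, with Cyp11b1 at least 3.33-fold, but Cyp21a1 had a bound of only 1.44-fold. Endothelial markers had 3 of 7 measured genes higher and 0 lower, with Sox18 at a log2 ratio of 0.84, and 1 of the 3, Pecam1, had a bound of 1.45-fold. Pericyte and smooth muscle markers had 3 of 8 higher, with Actg2 at 1.61, and 1 lower, Des, which had a bound of only 1.13-fold. Germ cell markers had 5 of 10 lower and 0 higher, with Sohlh1 at -1.21 and Figla at -0.96. Erythroid markers had 2 of 4 lower and 0 higher, with Alas2 at -1.64 and Slc4a1 at -1.16.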
